A study of Mus musculus with 10 samples.

Results

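The genes described here are the 48 mouse translation initiation factor genes of the dataset, out of 19938 genes tested. They are all genes whose symbol is Eif followed by a digit, apart from Eif2ak2, that have a probe set naming no other gene. The rule uses gene symbols alone, but it was chosen with earlier results of these data known. Where a gene had several probe sets, as 7 of the 48 did, its brightest probe set, by the mean of the 10 arrays, was used. Eif1, Eif2s1, Eif3g, Eif3j1, Eif3j2, Eif4g1 and Eif4ebp3 were not analysed here.

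RNA came from CD4-positive cells that were isolated from spleen with magnetic beads (autoMACS), from female mice of 8 weeks, and each sample was read on 1 Affymetrix mouse gene array. The strains are NOD, an inbred mouse that develops autoimmune diabetes and is labelled with genotype NODk, and B10, labelled B10Br. No transgene, deletion or Cre is named for either strain. Each strain has 3 arrays of the state called T0 (replicates 1, 2 and 3) and 2 arrays of the state called T1 (replicates 2 and 3). T1 cells received the phorbol ester PMA at 10 ng/ml and the calcium ionophore ionomycin at 1 uM for 4 hours, a mixture that activates T cells without engaging their receptor. T0 is labelled basal, and whether those cells were also cultured is not clear from the protocol. The samples are called biological replicates without naming the animals, so the p-values measure the spread between these samples.

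Initiation factors bring the small ribosomal subunit, the initiator tRNA and the capped end of an mRNA together, find the start codon and then allow the large subunit to join. The trimeric eIF2 carries the initiator tRNA, eIF2B recharges eIF2 with GTP, and stress kinases that phosphorylate eIF2 block that recharging. The eIF4F complex reads the cap and unwinds the mRNA, and binding proteins that take up its cap-binding subunit eIF4E hold it back. Resting T cells make little protein, and activation is known to raise their protein synthesis.

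All values are log2 intensities after robust multi-array averaging (RMA), so that 1 unit is a 2-fold difference. Levels of different genes are not compared, because probe sets differ in brightness. A change is called when limma's adjusted p is below 0.05, and its standard error follows the ± sign. The 7 measured CD4 T cell markers averaged 10.99 to 11.04 on the B10 T0 arrays and 10.86 to 10.96 on the NOD T0 arrays. On stimulation, 4 of the 7 fell in both strains and 1 rose in NOD. Markers of other cells were present too and moved with the groups. The mean of 8 B cell markers went from between 8.04 and 8.32 at T0 to between 7.03 and 7.06 at T1 in B10, and from between 8.29 and 8.61 to between 6.78 and 6.84 in NOD. Of the 8, 6 fell in B10 and 7 in NOD, while Cr2 rose in B10 (1.37, adjusted p = 4.97e-05). All 9 monocyte and macrophage markers fell in both strains, from an average of 7.83 to 8.21 in B10 and 8.45 to 8.73 in NOD at T0 to 6.79 to 6.99 and 7.02 to 7.25 at T1. Of 8 neutrophil markers, 3 fell in B10 and 6 in NOD, and of 4 natural killer markers, 1 fell in B10 and 1 in NOD. Of 2 CD8 T cell markers, 2 fell in B10 and 1 in NOD. In such bulk RNA, fewer cells of a type and less RNA per cell cannot be told apart. What these shifts contribute to the changes below was not tested.

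After stimulation, more initiation factor genes rose than fell in both strains. In B10, 26 of the 48 genes rose and 5 fell, where 31.8% of all genes tested were called, 13.7% as rising and 18.1% as falling. In NOD, 22 rose and 6 fell, where 35.5% of all genes were called, 16.1% as rising and 19.5% as falling. Most of the 48 were well expressed, and 46 of them lay among the brighter genes of the array, those above the median gene in at least 1 group. Of all brighter genes, 22.3% rose and 31.3% fell in B10, and 21.4% rose and 33.6% fell in NOD. The median change of the 48 genes was 0.33 in B10, beside 0.031 over all genes, and 0.25 in NOD, beside 0.081 over all genes.

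**Figure D1:**
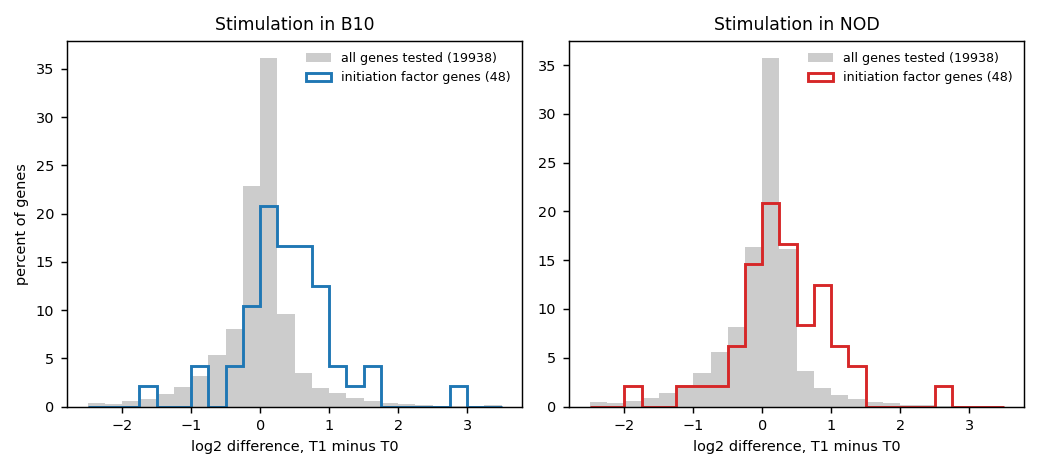
Distribution of the log2 difference of means, T1 minus T0, in B10 (left) and NOD (right), as the percent of genes in each bin, for all 19938 genes tested (grey) and for the 48 initiation factor genes (outline). The outline overlaps the grey bars in both strains, and its medians lie further right, at 0.33 and 0.25 against 0.031 and 0.081.

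The strains called largely overlapping sets of genes. All 22 genes that rose in NOD also rose in B10, where they were 84.6% of the rises. The 4 further rises in B10 were Eif2b1, Eif5, Eif3e and Eif3h. The 4 shared falls were Eif2ak3, Eif4e3, Eif4ebp2 and Eif4g3. The fall of Eif2d was called in B10 alone, and those of Eif2ak4 and Eif1b in NOD alone, and none of these 3 strain differences in response passed the test given further below. In each strain 6 genes rose at least 2-fold. By contrast, 1 gene fell that far in B10 and 2 in NOD.

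**Figure D2:**
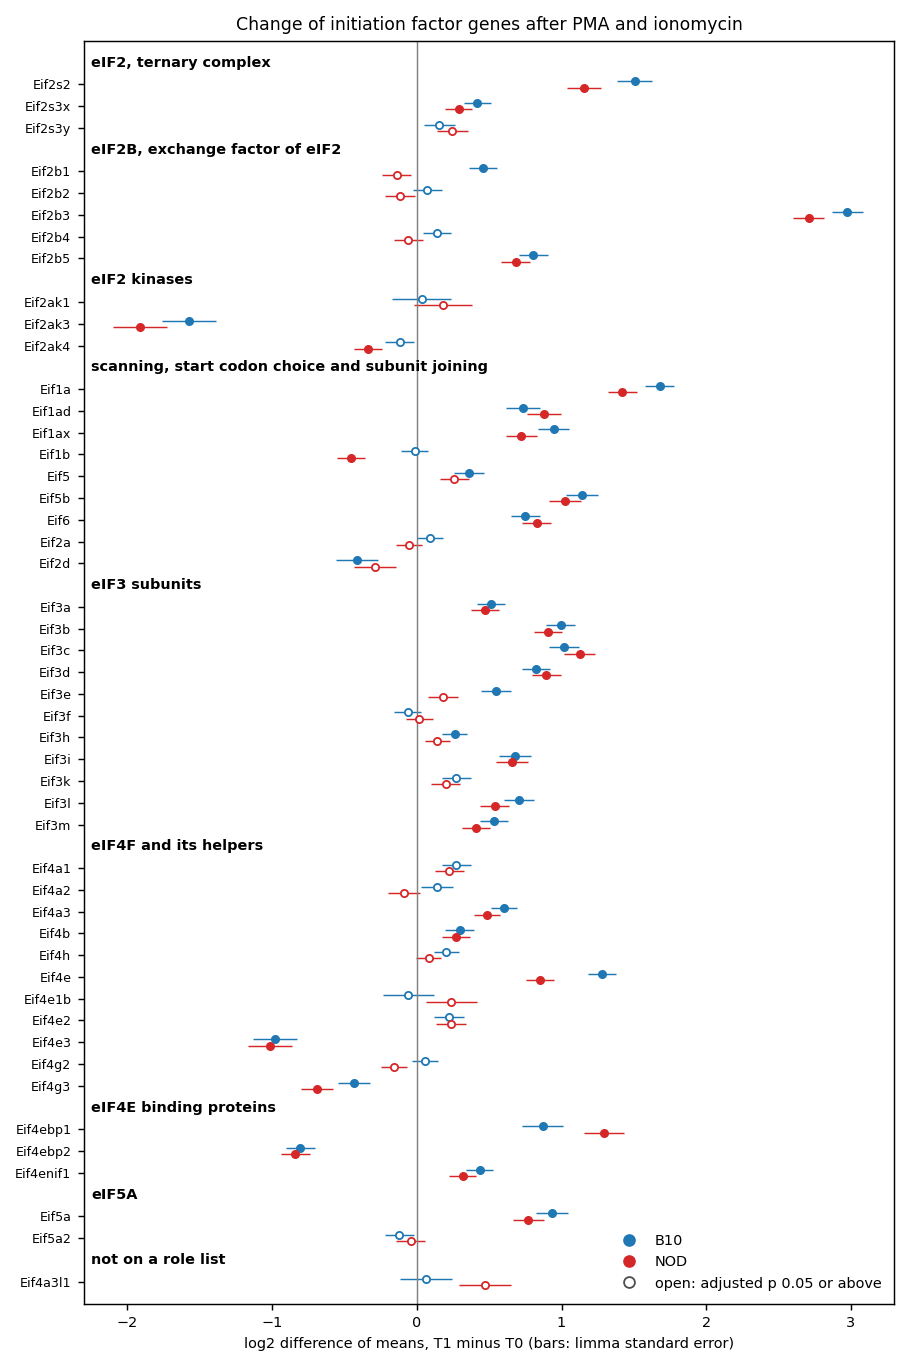
Log2 difference of means, T1 minus T0, for each of the 48 genes, grouped by role, in B10 (blue) and NOD (red), with limma's standard error as bars. Filled points passed an adjusted p of 0.05. The rises reach 2.98 for Eif2b3, the falls reach -1.91 for Eif2ak3, and most eIF3 subunits lie between 0 and 1.

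Both eIF2 subunit genes that female mice carry and that were measured rose. Eif2s2 encodes the beta subunit of eIF2. It read 9.19, 9.35 and 9.02 on the B10 T0 arrays and 10.75 and 10.65 at T1, and in NOD 9.43, 9.13 and 9.33 at T0 and 10.47 and 10.44 at T1. The T1 arrays lay more than 1 unit above every T0 array in both strains, a rise of 2.84-fold in B10 (1.51 ± 0.12, adjusted p = 6.59e-07) and in NOD 2.23-fold (1.16 ± 0.12, adjusted p = 6.6e-06). Eif2s3x, the X-linked gene of the gamma subunit, rose by less, by 0.42 ± 0.09 in B10 (adjusted p = 0.00333) and 0.29 ± 0.09 in NOD (adjusted p = 0.0287). The NOD call on Eif2s3x ended without T0 replicate 2 or 3 or T1 replicate 2 or 3. Over all single omissions, also those that kept the call, its value ran from 0.25 to 0.33. The Y-linked copy, Eif2s3y, is absent from the female genome, so its probe set shows its own background. It read between 2.79 and 3.18 on all 10 arrays and was not called.

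The eIF2B genes diverged from each other. Eif2b3, the gamma subunit of the catalytic part of eIF2B, read 7.22, 7.10 and 6.99 at T0 and 10.11 and 10.05 at T1 in B10, and 7.48, 7.31 and 7.55 at T0 and 10.18 and 10.13 at T1 in NOD. All 4 T1 arrays reached nearly the same level, far above the 6 T0 arrays. The rise was 7.87-fold in B10 (2.98 ± 0.11, adjusted p = 1.77e-09) and in NOD 6.53-fold (2.71 ± 0.11, adjusted p = 3.92e-09), the largest among the 48 genes in both strains. Counted from the largest rise of all 19938 genes, it ranked 34 in B10 and 36 in NOD. Eif2b5, the catalytic epsilon subunit, rose by 0.81 ± 0.10 in B10 (adjusted p = 2.73e-05) and 0.68 ± 0.10 in NOD (adjusted p = 0.000113). The regulatory subunits, which sense phosphorylated eIF2, moved little. Eif2b2 changed by 0.07 in B10 and -0.12 in NOD and Eif2b4 by 0.14 and -0.06, none of them called, while Eif2b1 was called in B10 at 0.46 ± 0.10 (adjusted p = 0.00271).

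Of the 3 eIF2 kinase genes among the members, from which Eif2ak2 was left out by rule, none rose. Eif2ak3 encodes PERK, the kinase that responds to unfolded protein in the endoplasmic reticulum. Its B10 arrays read 9.94, 10.05 and 10.29 at T0 and 8.21 and 8.83 at T1, and its NOD arrays 9.70, 9.57 and 9.69 at T0 and 8.01 and 7.47 at T1. Every T1 array was lower than every T0 array, by 2.98-fold in B10 (-1.57 ± 0.19, adjusted p = 2.14e-05) and in NOD 3.77-fold (-1.91 ± 0.19, adjusted p = 3.9e-06), and the T1 replicates of each strain lay more than 0.5 apart. Eif2ak4 encodes GCN2, the kinase that responds to uncharged tRNA. It read 7.13, 7.07 and 7.20 at T0 and 7.08 and 6.95 at T1 in B10, where the groups overlapped, and 7.10, 7.04 and 6.91 at T0 and 6.66 and 6.70 at T1 in NOD, where they did not. Its fall of -0.34 ± 0.10 was called in NOD (adjusted p = 0.017) and its value of -0.12 in B10 was not. The NOD call ended without NOD T0 replicate 1 (-0.30) or T1 replicate 2 (-0.32), with array weights (-0.29) and after scaling to the 75th percentile (-0.21). Eif2ak1, the heme-regulated kinase, did not pass the test on stimulation and is described with the strains below.

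Among the genes that act in scanning, start codon choice and subunit joining, 6 of 9 rose and 1 fell in B10, and 5 rose and 1 fell in NOD. Eif1a and Eif1ax both encode eIF1A, which helps the small subunit scan. Eif1a read 8.05, 8.24 and 8.13 at T0 and 9.85 and 9.79 at T1 in B10, and 8.40, 8.33 and 8.24 at T0 and 9.79 and 9.69 at T1 in NOD. No array overlapped between states, and the rise was 3.2-fold in B10 (1.68 ± 0.10, adjusted p = 5.67e-08) and in NOD 2.68-fold (1.42 ± 0.10, adjusted p = 2.21e-07). Its X-linked relative Eif1ax rose by 0.95 ± 0.11 in B10 and 0.72 ± 0.11 in NOD, and Eif1ad, whose protein carries an eIF1A-like domain, by 0.74 ± 0.12 and 0.88 ± 0.12. These paralogs are alike in sequence, and how far their probes share signal is not known here.

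Eif5b encodes the GTPase that joins the large ribosomal subunit. It read 8.86, 8.75 and 8.81 at T0 and 9.92 and 9.98 at T1 in B10, and 8.89, 8.83 and 8.88 at T0 and 10.07 and 9.72 at T1 in NOD. The T1 arrays were all higher, by 2.21-fold in B10 (1.14 ± 0.11, adjusted p = 3.4e-06) and in NOD 2.03-fold (1.02 ± 0.11, adjusted p = 9.07e-06). Eif6, which keeps the subunits apart until the large one is mature, showed rises of 0.75 ± 0.10 (B10) and 0.83 ± 0.10 (NOD). Eif5, the GTPase-activating partner of eIF2, rose in B10 by 0.36 ± 0.10 (adjusted p = 0.0147) and was not called in NOD at 0.26 (adjusted p = 0.0654). The B10 call ended without T0 replicate 1, T1 replicate 2 or T1 replicate 3, where its value ran from 0.29 upwards.

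Eif2d and Eif2a belong to routes that place the initiator tRNA without the usual eIF2 complex. Eif2d read 6.99, 6.91 and 7.03 at T0 and 6.80 and 6.33 at T1 in B10, and 7.03, 6.97 and 7.07 at T0 and 6.53 and 6.94 at T1 in NOD. One T1 array of each strain was clearly low and the other close to T0, so that the B10 call of -0.41 ± 0.15 (adjusted p = 0.047) rested on T1 replicate 3 and was -0.18 (adjusted p = 0.5) without it. The call also ended without any of the B10 or NOD T0 arrays in turn. Eif2a changed by 0.09 in B10 and -0.06 in NOD and was not called.

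The subunits of eIF3, the largest initiation factor and the scaffold on the small subunit, moved mostly together. In B10, 9 of the 11 measured rose, none fell, and the median change was 0.55. In NOD, 7 rose, none fell, and the median was 0.47. Eif3c, part of the core of the complex, read 10.09, 10.17 and 10.11 at T0 and 11.19 and 11.09 at T1 in B10, and 10.26, 9.99 and 10.07 at T0 and 11.18 and 11.28 at T1 in NOD. The states did not overlap, and it rose 2.02-fold in B10 (1.01 ± 0.10, adjusted p = 5.74e-06) and in NOD 2.18-fold (1.12 ± 0.10, adjusted p = 2.36e-06). Eif3b, the core subunit next to it, rose by 0.99 ± 0.10 in B10 and 0.91 ± 0.10 in NOD. Eif3d, which can itself contact the cap, rose by 0.82 and 0.89, and Eif3i by 0.68 and 0.66. Eif3a, Eif3l and Eif3m showed smaller rises, 0.51, 0.71 and 0.53 in B10 and 0.47, 0.54 and 0.41 in NOD. Eif3e and Eif3h were called in B10 alone, at 0.55 and 0.26 beside 0.18 and 0.14 in NOD. The B10 call on Eif3h ended without any of the B10 arrays in turn, or NOD T0 replicate 3, with values from 0.24 to 0.27. Eif3k changed by 0.27 and 0.20 and Eif3f by -0.06 and 0.02, neither called.

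Promoters of 4 eIF3 genes that rose hold CCGGAAG, a sequence of the kind that ETS transcription factors bind. Windows from 250 bases before to 50 after the start site were taken from RefSeq (GRCm38.p6), which gave windows for 38 of the 48 genes, and both strands were searched. A gene with windows at several start sites was counted when any of them held the motif. The stretches are printed in the direction of the gene, with each CCGGAAG or its reverse complement CTTCCGG in capitals. They lie at chr7:126566349-126566445 (minus strand, Eif3c, the nearer copy 34 bases before the start site), chr15:77970843-77970939 (minus strand, Eif3d, 70 bases before it), chr15:79075143-79075239 (plus strand, Eif3l, 35 bases before it) and chr2:105017031-105017127 (minus strand, Eif3m, 55 bases before it).
Eif3c: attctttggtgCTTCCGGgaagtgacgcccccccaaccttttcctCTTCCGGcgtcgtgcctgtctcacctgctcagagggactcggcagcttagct
Eif3d: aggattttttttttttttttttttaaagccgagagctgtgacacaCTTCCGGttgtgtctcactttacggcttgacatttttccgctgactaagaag
Eif3l: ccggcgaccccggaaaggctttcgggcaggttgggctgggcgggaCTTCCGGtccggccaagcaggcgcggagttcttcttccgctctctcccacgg
Eif3m: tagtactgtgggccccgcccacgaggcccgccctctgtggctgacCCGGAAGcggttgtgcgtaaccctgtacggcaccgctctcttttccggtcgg

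The same search found the motif in genes outside eIF3 and in both directions of change. It was present in 15 of the 38 promoters (39.5%), beside 13.6% of the 15614 tested genes with a window and 9.93% of all 27025 genes with one. Most initiation factor genes are among the brighter genes, and no share among all brighter genes is given for comparison. By response, it was in 8 of the 19 promoters of genes that rose in either strain, 2 of the 6 of genes that fell and 5 of the 13 of genes called in neither. Eif1ax, which rose, and Eif4ebp2, which fell, are shown as examples of the opposite directions. Their stretches lie at chrX:159371928-159372017 (plus strand, motif 212 bases before the start site) and chr10:61452742-61452838 (minus strand, 124 bases before it).
Eif1ax: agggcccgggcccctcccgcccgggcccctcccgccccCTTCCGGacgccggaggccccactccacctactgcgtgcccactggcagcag
Eif4ebp2: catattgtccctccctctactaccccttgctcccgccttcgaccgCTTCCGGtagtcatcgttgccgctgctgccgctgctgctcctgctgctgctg

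In eIF4F, the gene of the cap-binding subunit, Eif4e, rose while its relative Eif4e3 fell. Eif4e read 10.04, 10.10 and 10.02 at T0 and 11.43 and 11.24 at T1 in B10, and 10.26, 10.29 and 10.14 at T0 and 11.07 and 11.09 at T1 in NOD. The states did not overlap, and the rise was 2.43-fold in B10 (1.28 ± 0.10, adjusted p = 4.68e-07) and in NOD 1.8-fold (0.85 ± 0.10, adjusted p = 1.66e-05). Eif4e3, a cap-binding relative, read 7.80, 7.51 and 7.65 at T0 and 6.57 and 6.77 at T1 in B10, and 7.72, 7.77 and 7.65 at T0 and 6.98 and 6.42 at T1 in NOD. All 4 T1 arrays were below all 6 T0 arrays. It fell 1.97-fold in B10 (-0.98 ± 0.15, adjusted p = 0.000174) and in NOD 2.02-fold (-1.02 ± 0.15, adjusted p = 0.000131). Eif4e2, which represses some mRNAs by holding their cap, and the germline gene Eif4e1b were not called, at 0.22 and -0.06 in B10 and 0.23 and 0.24 in NOD.

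Eif4g3, a scaffold that joins the cap to the ribosome, fell. It read 8.68, 8.68 and 8.98 at T0 and 8.30 and 8.39 at T1 in B10, and 8.86, 8.83 and 8.88 at T0 and 8.10 and 8.24 at T1 in NOD. The T1 arrays were all lower, by 1.35-fold in B10 (-0.44 ± 0.11, adjusted p = 0.00763) and in NOD 1.61-fold (-0.69 ± 0.11, adjusted p = 0.000271). The B10 call ended without T1 replicate 2 (-0.39, adjusted p = 0.0656). Eif4g2, a scaffold relative without a cap-binding site, was not called, at 0.06 and -0.16.

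The helicases and their helpers moved by less. Eif4a3, the helicase of the exon junction complex, rose by 0.60 ± 0.09 in B10 and 0.48 ± 0.09 in NOD. Eif4b, which stimulates the eIF4A helicase, was called at 0.30 ± 0.10 in B10 (adjusted p = 0.0344) and 0.27 ± 0.10 in NOD (adjusted p = 0.0484). The NOD call on Eif4b ended in 15 of the 22 alternatives, among them each array left out in turn, with values from 0.21 to 0.30. The B10 call ended in 7, among them any B10 T0 array or B10 T1 replicate 3 left out. Over all single omissions, also those that kept the call, the B10 value ran from 0.22 to 0.37. Eif4a1, the main eIF4A helicase, was at 0.27 (adjusted p = 0.0599) and 0.22 (adjusted p = 0.107), and Eif4a2 at 0.14 and -0.09. Eif4h, another helper of the helicase, was at 0.20 and 0.08, and Eif4a3l1, whose symbol marks it as like Eif4a3 and which is on none of the role lists, at 0.06 and 0.47, none of them called.

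The binding proteins of eIF4E changed in opposite directions. Eif4ebp1 and Eif4ebp2 encode 4E-BP1 and 4E-BP2, which block eIF4E until the kinase mTORC1 phosphorylates them. Eif4ebp1 read 7.13, 6.99 and 7.08 at T0 and 7.95 and 7.93 at T1 in B10, and 7.01, 7.01 and 7.16 at T0 and 8.07 and 8.64 at T1 in NOD. It was higher on every T1 array, by 1.83-fold in B10 (0.87 ± 0.14, adjusted p = 0.000283) and in NOD 2.45-fold (1.29 ± 0.14, adjusted p = 9.79e-06), with the NOD T1 arrays further apart than any others. Eif4ebp2 read 8.77, 8.64 and 8.77 at T0 and 7.86 and 7.98 at T1 in B10, and 8.64, 8.63 and 8.51 at T0 and 7.69 and 7.82 at T1 in NOD. It was lower on every T1 array, by 1.75-fold in B10 (-0.81 ± 0.10, adjusted p = 2.85e-05) and in NOD 1.79-fold (-0.84 ± 0.10, adjusted p = 2.07e-05). Eif4enif1, the carrier that takes eIF4E into the nucleus, rose by 0.44 ± 0.09 in B10 (adjusted p = 0.00254) and 0.32 ± 0.09 in NOD (adjusted p = 0.0187). Its NOD call ended without NOD T0 replicate 2 or 3 or T1 replicate 2 or 3. Over all single omissions, also those that kept the call, the NOD value ran from 0.29 to 0.35.

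Eif5a encodes eIF5A, which carries the modified residue hypusine and helps the ribosome past difficult peptide bonds. It rose by 0.94 ± 0.11 in B10 (1.91-fold, adjusted p = 1.68e-05) and 0.77 ± 0.11 in NOD (1.71-fold, adjusted p = 8.96e-05), while its paralog Eif5a2 was not called, at -0.12 and -0.04.

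**Figure D3:**
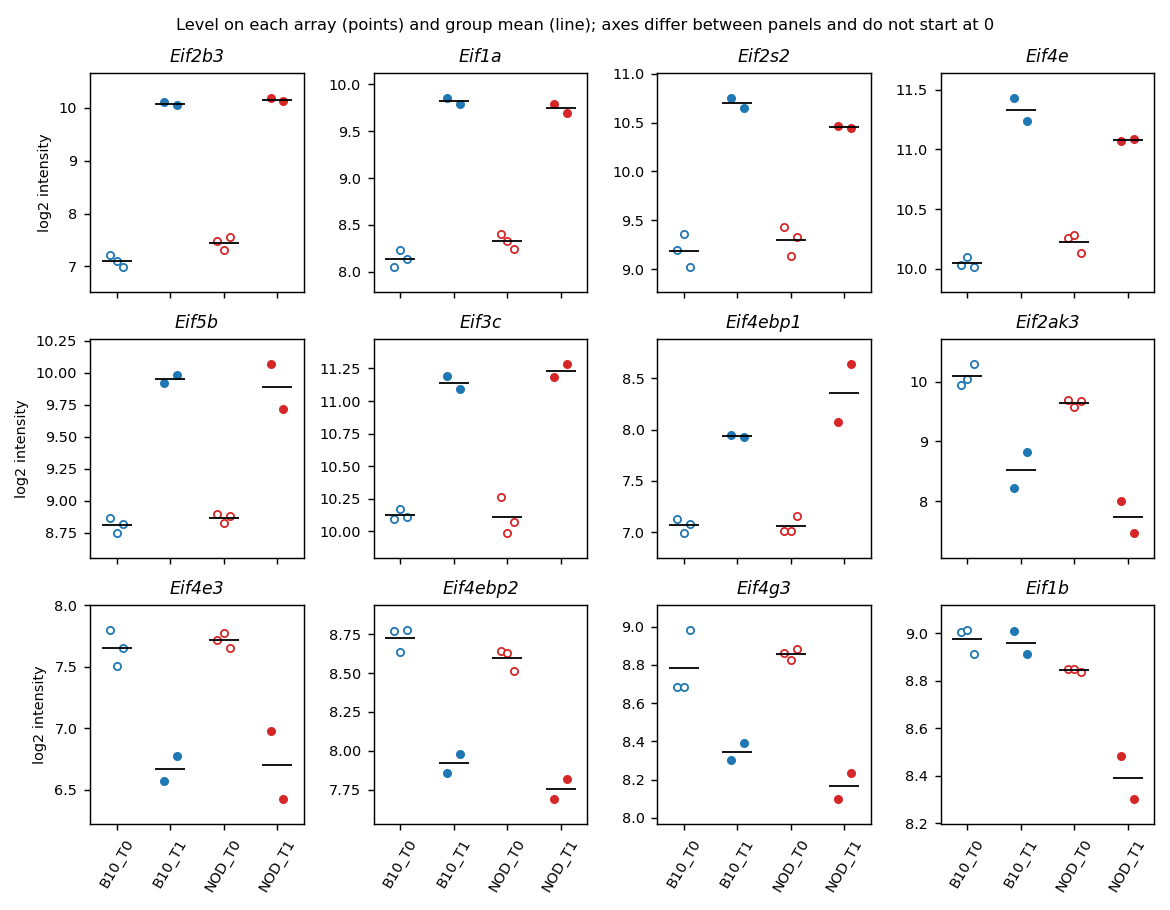
Log2 intensity on each array (points) and group mean (lines) for 12 of the genes, in the 4 groups B10_T0, B10_T1, NOD_T0 and NOD_T1, with 3 arrays a group at T0 and 2 at T1 and an axis for each panel that does not start at 0. T0 and T1 do not overlap within a strain in any panel but that of Eif1b, whose B10 groups share the range of 8.91 to 9.01. The 12 genes were picked from those with called changes, so this separation follows from the choice and is no further support.

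For 5 genes with several probe sets, the brightest one may not read the gene itself. Probe set numbers on this array follow the chromosomes. Of 21695 probe sets with 1 placed gene, 96.8% carry a number among those of genes on the same chromosome. The probe sets that stood for Eif2s2, Eif3m, Eif4a1, Eif4e and Eif5a are numbered among those of chromosomes 8, 1, 19, X and 5, although RefSeq places the genes on chromosomes 2, 2, 11, 3 and 11. Each of these genes also has a probe set numbered within its own chromosome. Eif4enif1 falls at the border of a pair of chromosomes and was not counted.

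Read from their own chromosome's probe set, Eif2s2, Eif4e and Eif5a still rose in both strains. The Eif4e probe set gave 8.33, 8.20 and 8.55 at T0 and 9.58 and 9.40 at T1 in B10, and 8.65, 8.36 and 8.42 at T0 and 9.51 and 9.49 at T1 in NOD. The states again did not overlap, and the rise was 2.19-fold in B10 (1.13 ± 0.12, adjusted p = 1.05e-05) and in NOD 2.03-fold (1.02 ± 0.12, adjusted p = 2.66e-05). A further Eif4e probe set on the same chromosome, dimmer than the others, changed by 0.21 and 0.30. Eif2s2 rose by 1.19 ± 0.11 in B10 and 1.13 ± 0.11 in NOD, and Eif5a by 0.69 ± 0.10 and 0.39 ± 0.10. Eif4a1, not called by its brightest probe set, rose in B10 by 0.34 ± 0.12 (adjusted p = 0.0436) and was not called in NOD at 0.22 (adjusted p = 0.169). Eif3m rose in B10 by 0.64 ± 0.12 (adjusted p = 0.00109), but its NOD call ended at 0.25 ± 0.12 (adjusted p = 0.143). Its probe set was also lower in NOD than in B10 at T1, by -0.60 ± 0.13 (adjusted p = 0.0297), a difference that its brightest probe set did not show.

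The promoters of Eif4e and Eif5a hold CACGTG, the E-box that MYC and related factors bind, as does that of Eif4a1. Eif3f and Eif1b hold it too, and of the 3 genes called between strains below only Eif2ak1 does not. These 5 are shown with the motif in capitals. The stretches lie at chr3:138527159-138527254 (plus strand, Eif4e, 64 bases before the start site), chr11:69921410-69921505 (minus strand, Eif5a, 74 bases before it), chr11:69672562-69672657 (minus strand, Eif4a1, 189 bases before it), chr7:108934302-108934397 (plus strand, Eif3f, 68 bases before it) and chr9:120492537-120492625 (plus strand, Eif1b, 24 bases before it).
Eif4e: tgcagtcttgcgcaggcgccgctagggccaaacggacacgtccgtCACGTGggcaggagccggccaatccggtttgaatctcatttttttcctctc
Eif5a: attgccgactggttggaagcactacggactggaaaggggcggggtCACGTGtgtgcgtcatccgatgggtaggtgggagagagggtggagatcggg
Eif4a1: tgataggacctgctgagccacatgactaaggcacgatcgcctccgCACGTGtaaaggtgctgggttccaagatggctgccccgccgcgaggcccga
Eif3f: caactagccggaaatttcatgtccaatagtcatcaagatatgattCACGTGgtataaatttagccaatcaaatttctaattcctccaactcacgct
Eif1b: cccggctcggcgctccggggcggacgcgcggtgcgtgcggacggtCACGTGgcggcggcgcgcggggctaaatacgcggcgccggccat

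The E-box was in 9 of the 38 promoters (23.7%), beside 9.50% of tested genes with a window. As for CCGGAAG, no share among the brighter genes is given. It was in 3 of the 19 promoters of genes that rose in either strain, 1 of the 6 of genes that fell and 5 of the 13 of genes called in neither. Eif1b, Eif5a and Eif5a2 held both motifs, which do not overlap, and 17 of the 38 held neither. For Eif5a, the matches nearest to a start site lie in the windows of different start sites. TGACGTCA, the element bound by CREB, was in none of the 38, and in 2.72% of tested genes with a window. A match describes the letters of the window and shows no binding.

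The other genes of the pathway, from lists of regulators, elongation and termination factors and mTORC1 components, changed in both directions. Of 23 regulators of initiation measured, 11 rose and 7 fell in B10, and 10 rose and 8 fell in NOD, beside the 13.7% and 18.1% of all genes in B10 and 16.1% and 19.5% in NOD given above. The rises ran from 0.36 to 1.45 in B10 and from 0.26 to 1.20 in NOD. Ppp1r15a, the stress-induced phosphatase subunit that reverses eIF2 phosphorylation, rose by 1.45 ± 0.14 in B10 (adjusted p = 3.07e-06) and 1.13 ± 0.14 in NOD (adjusted p = 2.74e-05). Pdcd4 encodes a protein that binds the eIF4A helicase and blocks it. It read 11.23, 11.21 and 11.18 at T0 and 8.22 and 8.07 at T1 in B10, and 11.22, 11.18 and 11.05 at T0 and 8.31 and 7.61 at T1 in NOD. Every T1 array was lower by more than 2 units, a fall of 8.34-fold in B10 (-3.06 ± 0.16, adjusted p = 2.16e-08) and in NOD 9.13-fold (-3.19 ± 0.16, adjusted p = 1.73e-08). Mknk2, a kinase that phosphorylates eIF4E, fell by 1.63 in B10 and by 1.72 in NOD on the log2 scale. Paip2, an inhibitor of the poly(A)-binding protein, fell by 1.35 and by 1.72. Dhps, which starts the hypusine modification of eIF5A, rose by 0.87 ± 0.10 in B10 and 0.51 ± 0.10 in NOD, and it was lower in NOD than in B10 at T1 by 0.47 (adjusted p = 0.0438).

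Of 9 elongation and termination factors measured, 5 rose (55.6%) and none fell in each strain. Eef1e1, a scaffold partner of the tRNA synthetases, rose 4.04-fold in B10 (2.01 ± 0.13) and in NOD 3.43-fold (1.78 ± 0.13). Etf1, the release factor that ends translation, rose by 1.03 and 0.79, and Eef1d, of the exchange factor of elongation, by 0.72 and 0.65. Of 10 mTORC1 genes measured, 1 rose in each strain, and 3 fell in B10 and 4 in NOD. These are 10% rising in each strain, beside 13.7% and 16.1% of all genes, and 30% and 40% falling, beside 18.1% and 19.5%. Rheb, the GTPase that activates mTORC1, rose by 0.68 and 0.40. Ddit4, which restrains mTORC1, fell by 1.25 in B10 and by 0.57 in NOD. Rptor, the subunit that recruits substrates, fell by 0.55 and by 0.59, and Rps6kb2, an S6 kinase, by 0.30 and by 0.44. These are mRNA levels, and the activity of mTORC1 was not measured.

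**Figure D4:**
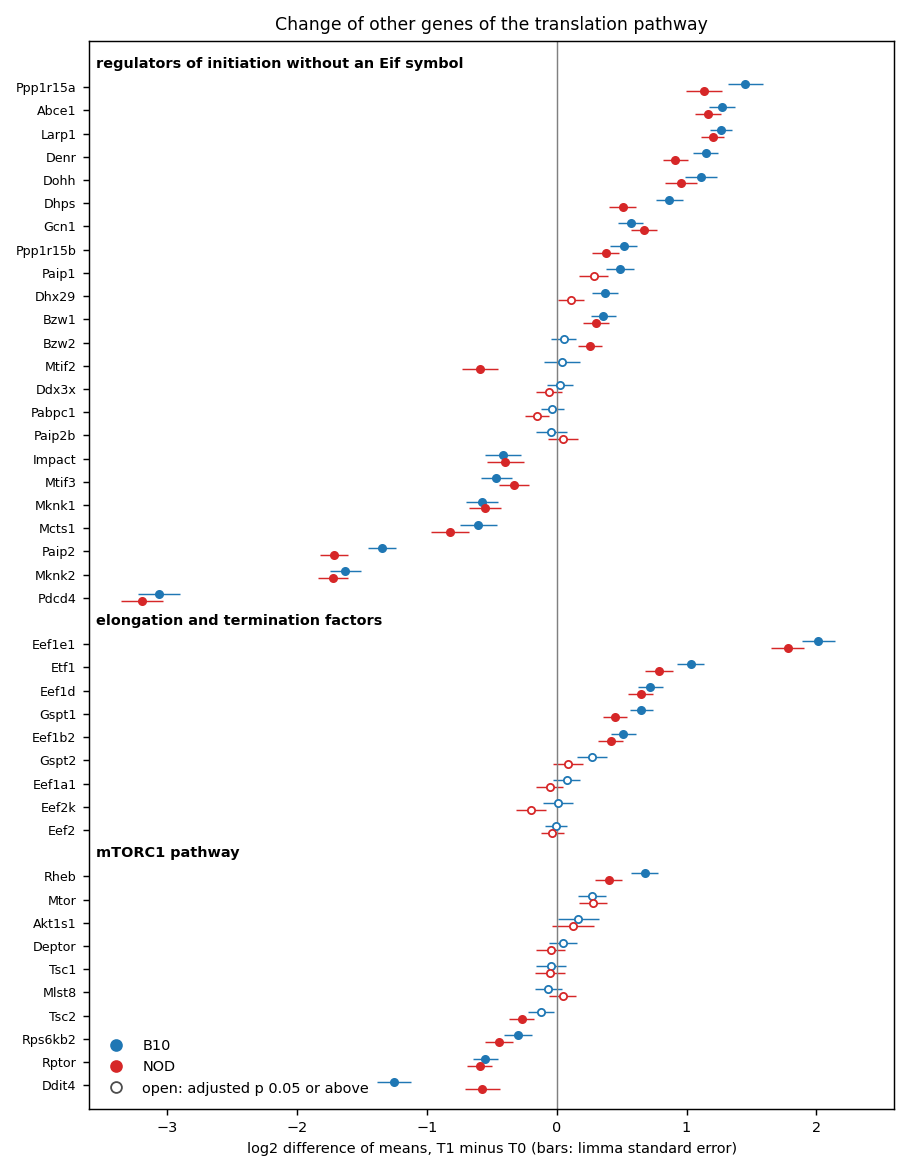
Log2 difference of means, T1 minus T0, in B10 (blue) and NOD (red) for the regulators of initiation, elongation and termination factors and mTORC1 genes, with limma's standard error as bars and filled points for an adjusted p below 0.05. Pdcd4 lies furthest to the left at -3.06 and -3.19, and Eef1e1 furthest to the right at 2.01 and 1.78.

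Between the strains, few initiation factor genes differed. At T0, 1 of the 48 genes was higher in NOD than in B10 and 1 was lower, where 5.79% of all genes tested were called, 3.44% higher and 2.35% lower. At T1 again 1 was higher and 1 lower, where 3.6% of all genes were called, 1.77% higher and 1.83% lower. Each of these 4 calls ended in at least 1 of the alternatives.

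Eif2ak1 was the higher gene in both states. It encodes HRI, the kinase that phosphorylates eIF2 when heme is short and is best known from red cell precursors. Its B10 arrays read 8.47, 8.36 and 8.87 at T0 and 8.27 and 8.94 at T1, and its NOD arrays 9.52, 9.43 and 9.84 at T0 and 9.64 and 9.92 at T1. All NOD arrays lay above all B10 arrays, by 2.04-fold at T0 (1.03 ± 0.18, adjusted p = 0.00557) and 2.26-fold at T1 (1.18 ± 0.22, adjusted p = 0.013). Within each strain, replicate 3 was the highest in both states. The change on stimulation was 0.03 in B10 and 0.18 in NOD, neither called. The T1 call ended without B10 T1 replicate 2 (0.84, adjusted p = 0.124) or NOD T1 replicate 3 (1.04, adjusted p = 0.102).

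Genes of red cell precursors moved with Eif2ak1 from array to array. The mean of Alas2, Klf1, Car2 and Slc4a1 was 8.30, 7.31 and 9.65 at T0 and 7.75 and 9.75 at T1 in B10, and 10.72, 10.42 and 10.96 at T0 and 10.55 and 11.00 at T1 in NOD. As for Eif2ak1, the NOD arrays were all higher than the B10 arrays, and replicate 3 was the highest in both states of each strain. All 4 markers were called higher in NOD at T0, with a median difference of 2.50, and none of the 4 at T1, with a median of 2.06. With the mean of Alas2, Klf1 and Car2 as a covariate, the strain difference of Eif2ak1 was 0.32 ± 0.17 at T0 (adjusted p = 0.664) and 0.55 ± 0.18 at T1 (adjusted p = 0.268). In that fit 0.682% of all genes passed at T0. Because the marker levels of the strains do not overlap, strain and red cell signal cannot be told apart here. Other cells' markers also differed at T0. Higher in NOD were 4 of 8 neutrophil, 4 of 9 monocyte and macrophage and 1 of 8 B cell markers. Lower in NOD were 2 of 4 natural killer and 1 of 2 CD8 T cell markers. What these contribute to the strain calls was not tested.

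**Figure D5:**
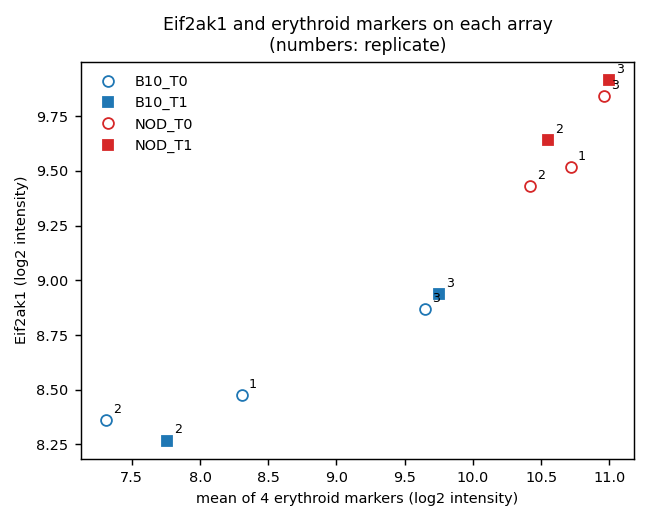
Eif2ak1 against the mean of 4 erythroid markers (Alas2, Klf1, Car2 and Slc4a1), both as log2 intensity, 1 point for each of the 10 arrays, with the replicate number beside it. The 5 NOD arrays lie at marker means of 10.42 to 11.00, above the B10 arrays at 7.31 to 9.75, and the B10 replicate 3 arrays lie nearest to them.

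Eif3f, an eIF3 subunit with a deubiquitinase-like fold, was the lower gene in NOD at T0. It read 11.14, 11.24 and 11.16 in B10 and 10.91, 10.80 and 10.75 in NOD. The groups did not overlap, and NOD was lower by 1.29-fold (-0.37 ± 0.08, adjusted p = 0.0207). At T1 it read 11.14 and 11.11 in B10 and 10.86 and 10.81 in NOD, a difference of the same direction that was not called (-0.29, adjusted p = 0.16). The T0 call ended without B10 T0 replicate 1 (-0.39) or 2 (-0.34), without NOD T0 replicate 2 (-0.36) or 3 (-0.33), and with the red cell covariate (-0.30, adjusted p = 0.594).

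Eif1b, a close relative of the start codon factor eIF1, was the lower gene in NOD at T1. It read 9.01, 9.01 and 8.91 at T0 and 9.01 and 8.91 at T1 in B10, and 8.85, 8.85 and 8.84 at T0 and 8.48 and 8.30 at T1 in NOD. The NOD T1 arrays lay below all others, by 1.48-fold against B10 at T1 (-0.57 ± 0.10, adjusted p = 0.0112). In NOD it fell on stimulation by 0.45 on the log2 scale (adjusted p = 0.00218), and in B10 it changed by -0.02. The T1 strain call ended without B10 T1 replicate 2 (-0.52, adjusted p = 0.103) or NOD T1 replicate 3 (-0.48, adjusted p = 0.0807), and with the red cell covariate (-0.46, adjusted p = 0.273). Its probe set can share signal with Eif1, which was not analysed here.

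Whether the strains responded differently was tested by the interaction, the NOD change minus the B10 change. With limma, none of the 48 genes passed, where 0.246% of all genes did, and 4 of the 48 had an unadjusted p below 0.05. The values ran from -0.60 to 0.42 with a median of -0.12, beside 0.014 over all genes, and 35 of the 48 were below 0. For the counts of 4 and of 35, no share of all genes is given here, so neither is read as particular to these genes. The 4 genes, singled out after their values were seen, were Eif2b1, Eif1b, Eif4e and Eif3e. Eif2b1 read 7.76, 7.73 and 7.62 at T0 and 8.20 and 8.12 at T1 in B10, and 8.01, 7.83 and 7.82 at T0 and 7.73 and 7.76 at T1 in NOD. It went up on both B10 arrays and not on the NOD arrays, a difference in response of -0.60 ± 0.14 (adjusted p = 0.136). Eif1b was at -0.44, Eif3e at -0.36 and Eif4e at -0.43, and the Eif4e probe set of its own chromosome gave -0.11 ± 0.18 (adjusted p = 0.885). A gene that missed the threshold here may still respond differently, since each response rests on 3 and 2 arrays.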

How the data were processed

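The deposited values are log2 intensities that the authors made with RMA in Affymetrix Power Tools, per the submitters' processing notes, whose versions are not given in the sources used here. RMA gives all arrays 1 distribution (array medians 6.18 to 6.23), so a shift of all genes together would not show. That the base is 2 was judged by their range. The number of arrays limits precision, and no detection calls were used. Of 35486 probe sets, 21789 name 1 gene, 1621 several and 12076 none in GEO's platform annotation, and 21698 of the 21789 matched RefSeq (GRCm38.p6). Another 10 probe sets that list an Eif gene beside other genes were left out.

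Means of the 4 groups were fitted to all 10 arrays with limma 3.58.1 in R 4.3.3 (eBayes, two-sided, 6 residual and 6.30 prior degrees of freedom), and Benjamini-Hochberg adjustment covered 19938 genes in each of 5 contrasts. The procedure was tested on simulated data. Values on every array are given for the 6 largest called rises and falls in each stimulation contrast, the members called between strains and Eif2s3y, and other lists are named by their 3 largest called values per stimulation contrast and any called between strains. Members and lists were chosen with earlier results of these data known. Figures were drawn with matplotlib 3.10.9.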

Additional observations from a re-analysis of the deposited data

How the results depend on the processing

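Of the stimulation calls, 26 of 31 in B10 and 23 of 28 in NOD were kept in all 22 alternatives run, and no called value changed sign. With B10 replicate 3 left out in both states, 3 genes fell in B10 (5 otherwise). Leaving out 1 array at a time gave 23 to 26 rises and 4 to 5 falls in B10, and 19 to 22 rises and 5 to 7 falls in NOD. Scaling each array to a common 75th percentile moved the NOD median over all genes from 0.081 to 0.207 and the split of its calls to 5393 higher and 3145 lower, and the initiation factor genes to 29 rises and 4 falls in B10 and 30 and 5 in NOD. The strain counts, each 1, were the least stable. At T0, the higher count was 2 with only brighter genes, with trend and robust settings or with array weights, 0 with the red cell covariate, and 1 to 2 with 1 array left out. The lower count at T0 was 2 after scaling or with only the arrays compared, 3 with brighter genes or trend and robust settings, 4 with array weights, 0 with the covariate or without B10 replicate 3, and 0 to 2 with 1 array left out. At T1, the higher count was 0 with every probe set tested, only the arrays compared or the covariate, and 0 to 2 with 1 array left out. The lower count at T1 was 4 with brighter genes, 3 with trend and robust settings, 0 with only the arrays compared or the covariate, 2 with own-chromosome probe sets, and 0 to 2 with 1 array left out. The causes were not tested. The interaction gave 0 calls in every alternative run for it. The own-chromosome setting was chosen after seeing the data.

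Same-numbered arrays of T0 and T1 deviated from their group means with correlations of 0.413 and 0.404 in B10 and -0.0145 and 0.219 in NOD. NOD replicate 2 did not reach the minimum set, 0.1, so the number was not taken to pair the arrays. Both B10 values passed it, and whether same-numbered B10 arrays share a source is not known. With 2 arrays at T1, their deviations are equal and opposite, so the 2 values of a strain are not separate checks. With the replicate number as a block, 23 genes rose and 4 fell in B10, 21 rose and 5 fell in NOD (the block ended the calls on Eif5, Eif2d, Eif3h and Eif4b in B10 and on Eif2ak4 and Eif4b in NOD), the strain counts stayed at 1 higher and 1 lower in each state, and 0 genes passed the interaction. As a random block the correlation was 0.0828.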
